A study of Homo sapiens with 32 samples.

Results

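The 8 genes described here are a set around DNA synthesis and S phase: TYMS, CCNE2, FEN1, MCM7 and NASP, the kinetochore gene CENPU, the RNA polymerase I gene POLR1B, and ENOSF1, which overlaps TYMS on the other strand. They were taken by gene symbol from the 57773 genes of the merged count table and are given in all 32 libraries. All 8 passed the filter on low counts that left 3985 genes for testing. The libraries came from LNCaP, a human prostate cancer cell line with luminal features. The parental LNCaP line carried no construct. Each of the other lines stably expressed, from a lentiviral backbone and under blasticidin selection, a MACC construct, in which ERT2, a receptor domain switched on by tamoxifen, is fused to a domain that binds DNA. The neutral construct carried a 3X FLAG tag only, the repressive construct added KRAB, a domain that recruits silencing complexes, and the activating construct added VP64, a strong activation domain. Each line was exposed to tamoxifen at 2.5 µM or to vehicle (ethanol) for 48 h, with 4 biological replicates in each of the 8 groups. The construct lines were selected populations, and the construct itself was present in the vehicle libraries as well. The comparisons address whether recruiting an activator or a repressor to the sites the construct binds changed the RNA of genes that cells use to copy their genome.

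Cells enter S phase when cyclin E activates CDK2 and the MCM helicase, loaded on origins beforehand, is switched on. The fork then needs deoxynucleotides, nucleases that trim the flaps of Okazaki fragments, and histone chaperones that rebuild chromatin behind it. Many of these genes are transcribed by E2F factors once RB is phosphorylated, so their summed RNA is commonly read as a measure of proliferation. In a bulk library a smaller number of cells in S phase and less RNA per cell cannot be told apart.

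Promoter sequences are shown for the 4 members with the clearest changes among those for which a window was taken. The response can thus be read beside what lies at each start. RefSeq windows of build GRCh38.p14 were taken for 7 of the 8 members, in 10 entries. The stretch printed is the 250 bases before the start, 5′ to 3′ on the strand of the gene. Capitals mark the letters searched on both strands, which were the E2F forms TTTCGCGC, TTTGGCGC, TTTCCCGC and TTTGCCGC, the CCAAT box, and TGTTCT, one arm of a steroid hormone response element. TYMS and ENOSF1 lie at one locus on opposite strands, and their starts are far apart.
TYMS (chr18:657403-657652, plus strand): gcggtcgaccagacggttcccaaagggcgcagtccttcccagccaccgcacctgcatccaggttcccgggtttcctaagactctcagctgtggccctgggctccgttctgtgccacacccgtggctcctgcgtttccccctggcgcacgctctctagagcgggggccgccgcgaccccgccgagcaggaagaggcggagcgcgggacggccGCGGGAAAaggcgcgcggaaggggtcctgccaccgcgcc
ENOSF1 (chr18:712631-712880, minus strand): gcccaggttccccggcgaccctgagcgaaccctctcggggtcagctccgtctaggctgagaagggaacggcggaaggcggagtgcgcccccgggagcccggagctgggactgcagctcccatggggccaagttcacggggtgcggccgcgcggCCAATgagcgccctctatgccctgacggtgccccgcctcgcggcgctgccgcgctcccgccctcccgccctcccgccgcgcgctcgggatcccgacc
CENPU (chr4:184734097-184734346, minus strand): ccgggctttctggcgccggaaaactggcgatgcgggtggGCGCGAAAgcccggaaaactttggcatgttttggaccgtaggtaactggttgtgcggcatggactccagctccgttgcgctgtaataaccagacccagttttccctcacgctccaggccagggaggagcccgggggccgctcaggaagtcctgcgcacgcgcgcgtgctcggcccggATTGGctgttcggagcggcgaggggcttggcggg
FEN1 (chr11:61792661-61792910, plus strand): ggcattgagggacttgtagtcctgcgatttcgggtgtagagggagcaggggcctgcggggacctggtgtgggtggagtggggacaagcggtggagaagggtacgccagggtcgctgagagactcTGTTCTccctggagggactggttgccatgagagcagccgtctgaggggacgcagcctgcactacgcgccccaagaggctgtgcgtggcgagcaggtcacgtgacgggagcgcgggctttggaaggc

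An E2F form stood on the opposite strand 39 to 32 bases before the start of TYMS and 211 to 204 bases before that of CENPU. The first entry of MCM7 held a pair of them, at 187 to 180 and at 9 to 2 bases before the start. Any of the 4 forms was found in 2.79% of the 35116 windows of this length. ENOSF1 held a CCAAT box 97 to 93 bases before its start, CENPU held one at 34 to 30 bases and NASP one at 203 to 199 bases, the MCM7 entries held it as well, and 32% of windows held that pentamer. TGTTCT was found in FEN1, 126 to 121 bases before the start, and in 12.4% of all windows. None of these letters occurred in the POLR1B entries. No window was taken for CCNE2, so its promoter letters were not searched. Such a match describes the letters in the window and is not evidence of binding.

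The libraries held between 454982 and 1164808 assigned counts, with a median of 669922. Rows of abundant genes were low. GAPDH averaged 65.6 counts per library, and TUBB, a tubulin gene, averaged 16.4 counts while the gene annotated on the strand opposite to it averaged 13337. The library kit records strand, the strand setting used in counting is not given in the sources used here, and its part in the values below was not tested. For overlapping genes on opposite strands, which of the pair a counted read came from cannot be told apart from these files, so a row such as ENOSF1, INTS8 or PRIMPOL may hold reads of TYMS, CCNE2 or CENPU, and the reverse. Of all counts on annotated genes, 80.9% lay on the 23.0% of genes that have an exon overlapping an exon of a gene on the opposite strand. Among 9 luminal markers of LNCaP, KLK3 was counted 3 to 59 times in a library and KRT8 311 to 5848 times. The summed marker counts ranged from 417 to 1568 in the other groups and from 4169 to 5964 in the activating line under tamoxifen. No marker other than KRT8 exceeded 72 counts in a library, so the sum mostly follows KRT8 and does not show a rise of the others. Of 7 markers of basal, stromal and leukocyte cells, TP63, COL1A2, DCN and PTPRC were at 0 in every library. The sum of the 7 was at most 3 in the other groups and 38 to 54 in the activating line under tamoxifen, where KRT5, a basal keratin, reached 54. The part of these shifts in the results was not tested.

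Per kilobase of exon, and over the 16 vehicle libraries, ENOSF1 stood at 101.7 ± 6.8 CPM (SD), the counts scaled to the effective library size, and FEN1 followed at 27.1 ± 5.7. TYMS (11.2 ± 3.7), CCNE2 (10.4 ± 1.8) and CENPU (10.3 ± 2.2) did not differ beyond their spread. MCM7 stood at 5.01 ± 0.99, POLR1B at 2.0 ± 0.78 and NASP at 1.41 ± 0.69, and the last pair overlapped. ENOSF1 was thus the most strongly counted member, although its overlapping neighbour TYMS is the one with the established role in DNA synthesis. All levels that follow are normalised CPM, with no correction for length.

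**Figure D1:**
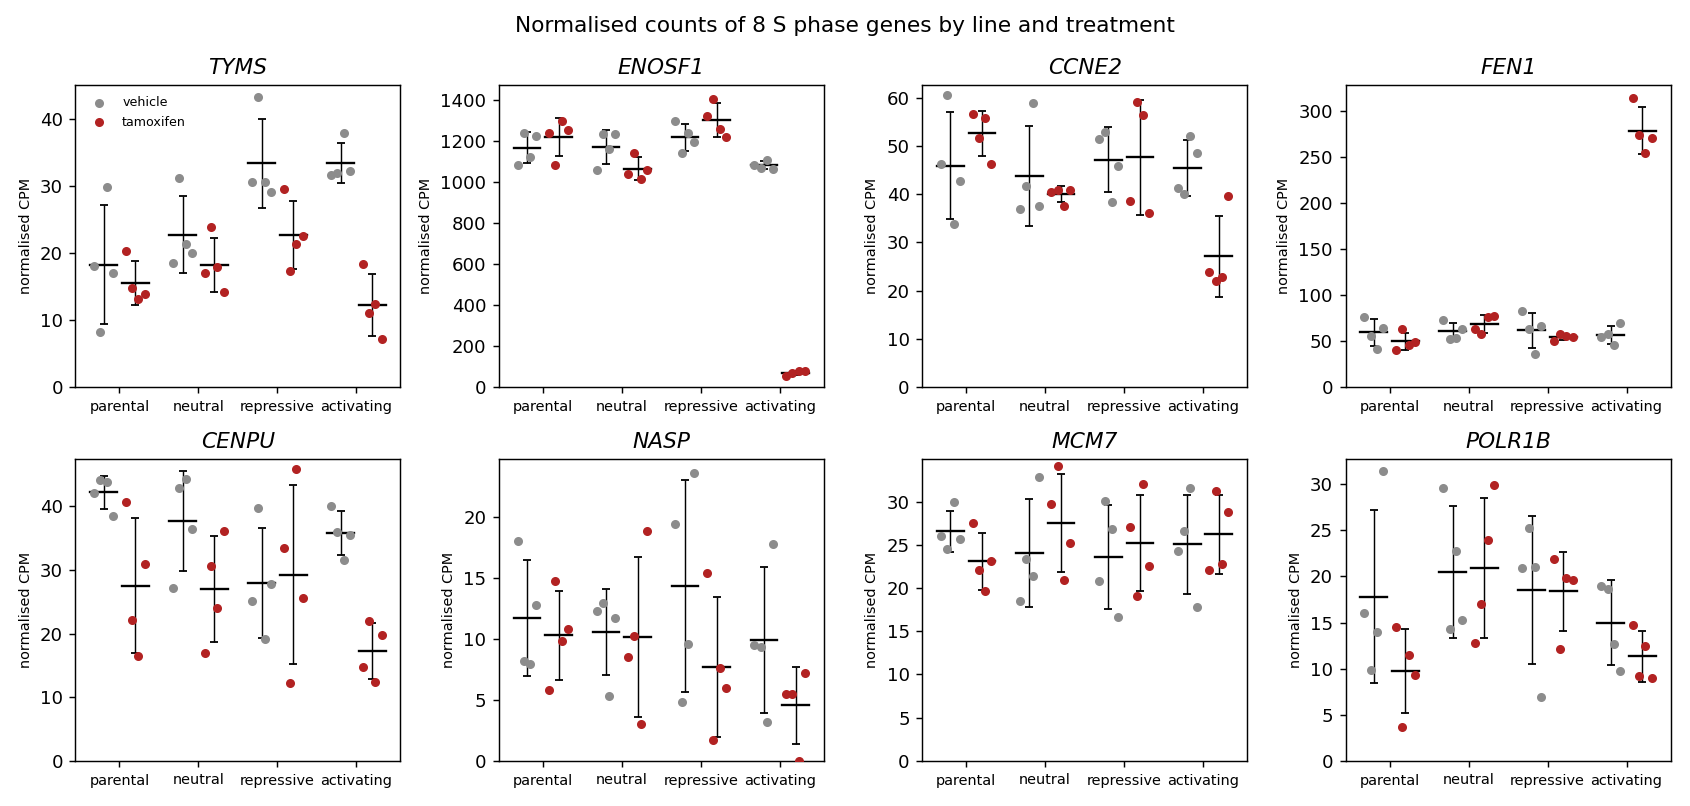
Each panel plots one gene, with the 4 lines along the horizontal axis and CPM (normalised by TMM) on the vertical axis, which starts at 0. Points are libraries (grey, vehicle; red, tamoxifen), bars are means and whiskers are SD (n = 4). ENOSF1 falls from 1080 to 69.8 and FEN1 rises from 56.6 to 278.1 in the activating line, while the groups of the other lines overlap.

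Tamoxifen changed 5 of the 8 members in the activating line. ENOSF1, TYMS, CENPU and CCNE2 fell and FEN1 rose, and each of these 5 also showed no overlap between the tamoxifen and the vehicle libraries. The same comparison called 44.8% of all tested genes, 22.0% higher and 22.8% lower, and 41.6% of tested genes had ranges without overlap, so 5 of 8 is not far from the background. In the parental line no member was called, as for all genes (0% called with edgeR, and DESeq2 also called none). No member was called in the neutral line, where 4.72% of genes were, or in the repressive line, where 17.8% were. At an unadjusted p under 0.05, edgeR gave 2 members in the parental line (POLR1B and CENPU), 2 in the neutral line (ENOSF1 and CENPU) and 1 in the repressive line (TYMS), against 306, 671 and 1194 of the 3985 tested genes, and DESeq2 called 0 of the members in each. No member had separate ranges in these 3 lines either, against 3.76%, 10.9% and 20.7% of all tested genes in the parental, neutral and repressive lines.

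**Figure D2:**
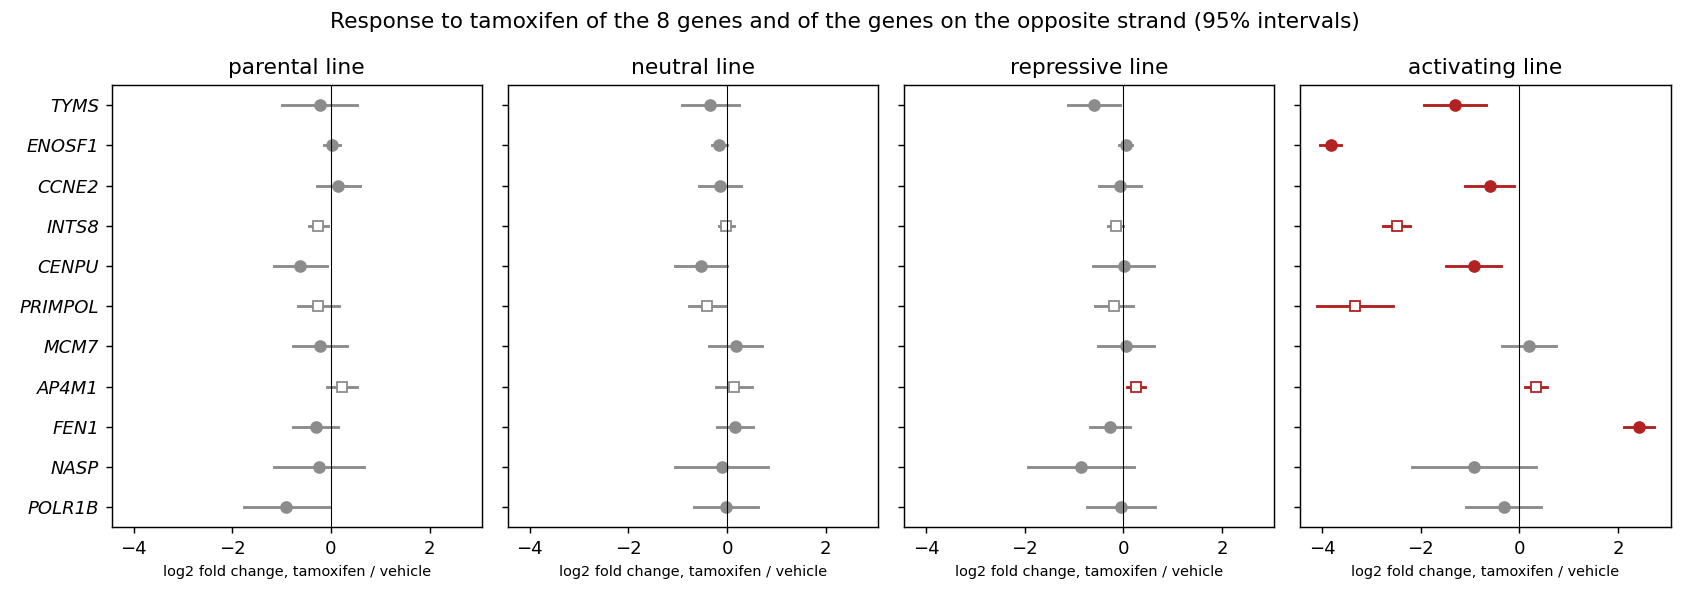
Log2 fold change of tamoxifen over vehicle (horizontal axis) with 95% intervals for the 8 genes (circles) and for 3 genes whose exons overlap them on the opposite strand (INTS8, PRIMPOL and AP4M1, open squares), in one panel per line. Red marks an adjusted p under 0.05. ENOSF1 at -3.83, PRIMPOL at -3.34 and INTS8 at -2.49 lie farthest to the left in the activating line, and FEN1 at 2.42 farthest to the right.

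Deoxynucleotide supply is represented by TYMS, thymidylate synthase, the enzyme that makes dTMP from dUMP (GRCh37 chr18:657653-673578, plus strand). It was counted 30, 24, 24 and 20 times in the vehicle libraries of the activating line and 10, 6, 6 and 4 times under tamoxifen. All 4 tamoxifen libraries lay below all 4 vehicle libraries. The mean fell from 33.5 ± 3.0 to 12.3 ± 4.6 CPM, a log2 fold change of -1.31 ± 0.31 (SE, adjusted p = 0.00119). In the repressive line it was counted 22, 36, 16 and 21 times under vehicle and 23, 10, 14 and 15 times under tamoxifen, ranges that overlapped, and the change of -0.59 ± 0.26 did not pass (adjusted p = 0.111). The parental line gave 9, 5, 15 and 12 counts under vehicle and 14, 8, 8 and 9 under tamoxifen, and the neutral line gave 15, 24, 16 and 17 and then 16, 14, 12 and 9. Both of these pairs overlapped, with changes of -0.23 ± 0.37 and -0.34 ± 0.28.

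The mean level of TYMS without induction varied among the lines, but no difference from the parental line passed in the main tests. It was highest in the vehicle libraries of the activating (33.5) and repressive (33.4 ± 6.6) lines and lower in those of the neutral (22.8 ± 5.7) and parental (18.3 ± 8.9) lines. The differences from the parental line were 0.92 ± 0.31 for the repressive and 0.90 ± 0.31 for the activating line on the log2 scale, and neither passed (adjusted p = 0.0635 and 0.0816). Parental vehicle replicate 3, at 15 counts, was the highest of its group, and without it these differences became 1.25 and 1.23 and passed (adjusted p = 0.0259 and 0.0452). With other libraries left out they went down to 0.65 and 0.60. Among all tested genes, 9.74% were called between the neutral and parental vehicle libraries, 10.8% between the repressive and parental, and 8.08% between the activating and parental, and none of the 8 members was. At an unadjusted p under 0.05 these edgeR comparisons gave 0, 2 (TYMS and CENPU) and 1 (TYMS) of the 8, against 897, 953 and 888 of the 3985 tested genes, and DESeq2 called 0 of the 8 in each. The fall of TYMS in the activating line was not shown to differ from that in the neutral line (-1.0, 95% interval -1.84 to -0.16, adjusted p = 0.0603) or in the repressive line (-0.72, -1.53 to 0.09, adjusted p = 0.164).

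ENOSF1, a mitochondrial enolase superfamily enzyme, lies on the minus strand of the same locus (GRCh37 chr18:670318-712662), with its last exons running over the end of TYMS. It was counted 1023, 802, 701 and 659 times in the vehicle libraries of the activating line and 30, 37, 38 and 43 times under tamoxifen. No tamoxifen library came near a vehicle library. The mean fell from 1080 ± 19 to 69.8 ± 10.9 CPM, 14.2-fold lower (log2 fold change -3.83 ± 0.11, adjusted p = 9.75e-19). In the other 3 lines the counts lay between 540 and 1050 in every library, with changes of 0.02 ± 0.07 (parental), -0.15 ± 0.07 (neutral) and 0.05 ± 0.07 (repressive). Ordered by level, the 7 other groups ran from 1301 ± 81 in the repressive line under tamoxifen to 1063 ± 56 in the neutral line under tamoxifen, each overlapping the next, and the step down to the activating line under tamoxifen was the only one without overlap. The response differed from that of the neutral line by -3.70 (95% interval -3.94 to -3.46, adjusted p = 1.37e-20) and from that of the repressive line by -3.88 (-4.14 to -3.63, adjusted p = 2.03e-24). These comparisons called 33.4% and 35.9% of all tested genes, and the comparison of the repressive with the neutral response called 3.39% and no member (at an unadjusted p under 0.05 with edgeR 1, ENOSF1, and 591 of all tested genes, and 0 members with DESeq2).

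TYMS and ENOSF1 share 967 bases of exon on opposite strands, and 47.9% of the exonic length of TYMS is overlapped by an exon on the other strand, against 10.8% of ENOSF1. The share of TYMS in the summed counts of the pair was therefore taken in each library. In the activating line it was 2.85%, 2.91%, 3.31% and 2.95% under vehicle and 25.0%, 14.0%, 13.6% and 8.51% under tamoxifen. The 95% Clopper-Pearson intervals of the tamoxifen libraries were wide, from 12.7 to 41.2% for the highest and from 2.37 to 20.4% for the lowest, and cover counting error only. The mean share moved from 3.00 ± 0.21% to 15.3 ± 6.9% (exact two-sided permutation test, p = 0.0286, the smallest p that 4 against 4 can give). Both genes fell, and ENOSF1 fell further than TYMS. In the repressive line the share moved the other way, from 2.69 ± 0.65% to 1.73 ± 0.40% (exact permutation p = 0.0286), and the parental (p = 0.571) and neutral (p = 0.457) exact permutation tests did not pass. With their counts summed before the fit, the activating line gave -3.64 for the pair on the log2 scale. C18orf56, also named TYMSOS, overlaps the start of TYMS over 193 bases. It was counted 2 to 18 times in the vehicle libraries of the construct lines and 0, 0, 1 and 0 times in the activating line under tamoxifen, too few to test.

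**Figure D3:**
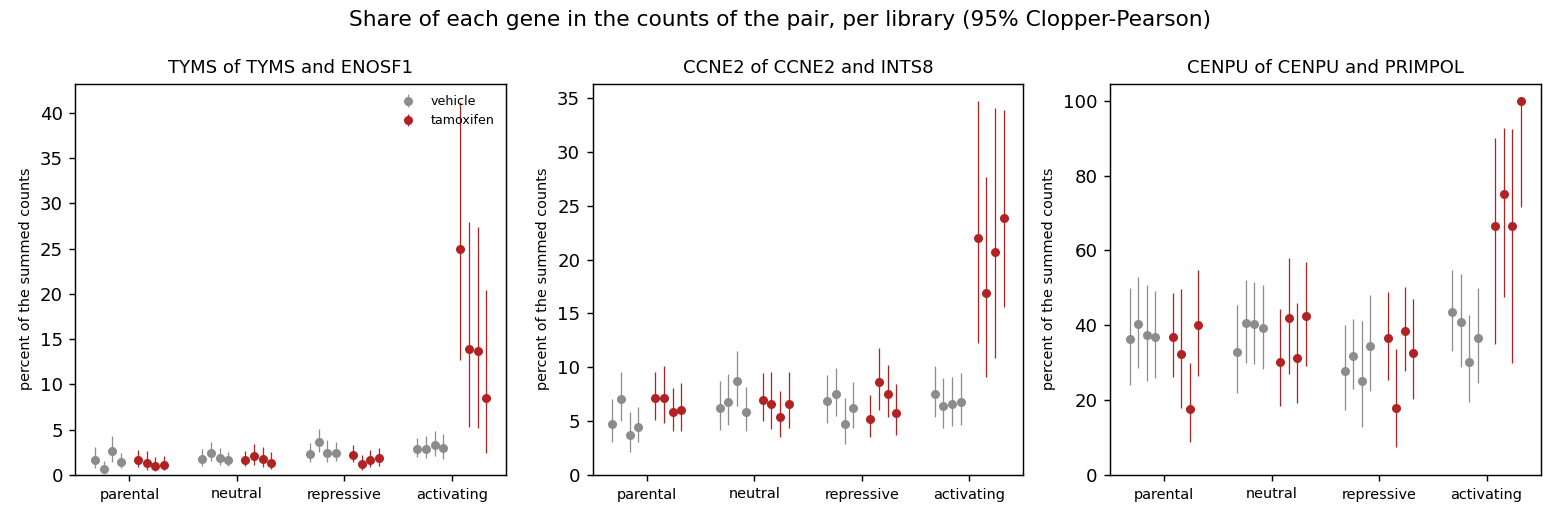
Share (percent, vertical axis) of TYMS, CCNE2 and CENPU in the summed counts of each gene and the overlapping gene on the opposite strand, per library, with 95% Clopper-Pearson intervals; the horizontal axis gives the line and the colour the treatment (grey, vehicle; red, tamoxifen). The 4 tamoxifen libraries of the activating line lie above the vehicle libraries in each panel, up to 25.0% for TYMS, 23.9% for CCNE2 and 100% for CENPU. No share was taken for MCM7 and AP4M1, which also overlap.

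Entry into S phase is represented by CCNE2, cyclin E2, a partner of CDK2 (GRCh37 chr8:95891998-95908906, minus strand). Its counts in the activating line were 39, 30, 33 and 30 under vehicle and 13, 12, 11 and 22 under tamoxifen. The ranges were separate but close, at 40.0 CPM for the lowest vehicle library and 39.6 for the highest tamoxifen library. The mean fell from 45.4 ± 5.8 to 27.1 ± 8.4 CPM (log2 fold change -0.60 ± 0.24, adjusted p = 0.0440). The call did not hold with DESeq2 (adjusted p = 0.149) and was lost when any of 6 of the 8 libraries was left out. In the other lines 17 to 44 counts were found per library, the ranges overlapped and the changes lay between -0.14 and 0.15. INTS8, a subunit of the Integrator complex, overlaps CCNE2 on the opposite strand over 1629 bases. It was counted 479, 440, 468 and 414 times under vehicle and 46, 59, 42 and 70 times under tamoxifen in the activating line, 5.61-fold lower (adjusted p = 3.86e-13). Under vehicle INTS8 was also lower in the neutral (-0.62), repressive (-0.32) and activating (-0.51) lines than in the parental line (adjusted p = 1.26e-05, 0.0301 and 0.00904), which CCNE2 was not. The share of CCNE2 in the pair moved from 6.81 ± 0.50% to 20.9 ± 3.0% in the activating line (exact permutation p = 0.0286) and did not pass in the other lines (exact permutation p between 0.0857 and 0.600). Summed, CCNE2 and INTS8 gave -2.25 in the activating line, against -0.60 for CCNE2 alone.

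CENPU, a protein of the inner kinetochore that binds near CENP-A nucleosomes (GRCh37 chr4:185615239-185655284, minus strand), was counted 38, 27, 20 and 22 times under vehicle and 8, 12, 6 and 11 times under tamoxifen in the activating line. The groups did not overlap in CPM. The mean fell from 35.8 ± 3.5 to 17.2 ± 4.5 CPM (log2 fold change -0.93 ± 0.27, adjusted p = 0.00673). Tamoxifen also gave a lower value in the parental line (42.2 ± 2.6 against 27.5 ± 10.6, log2 fold change -0.63 ± 0.26) and in the neutral line (37.7 ± 7.8 against 27.0 ± 8.3, -0.53 ± 0.25), where the ranges overlapped and the tests did not pass (adjusted p = 0.632 and 0.288). The repressive line gave 0.00 ± 0.30. The response of the activating line differed from that of the neutral line by -0.43 (95% interval -1.18 to 0.32, adjusted p = 0.404) and from that of the repressive line by -0.93 (-1.77 to -0.10, adjusted p = 0.0771). PRIMPOL, the primase and polymerase that restarts stalled forks, overlaps CENPU on the opposite strand over 520 bases. It was counted 49, 39, 46 and 38 times under vehicle and 4, 4, 3 and 0 times under tamoxifen in the activating line (log2 fold change -3.34 ± 0.37, adjusted p = 8.60e-08). The share of CENPU in the pair moved from 37.9 ± 5.8% to 77.1 ± 15.8% (exact permutation p = 0.0286), and the last tamoxifen library held 11 counts of CENPU and none of PRIMPOL. Summed, the pair gave -1.94 in the activating line, against -0.93 for CENPU alone.

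Work at the fork is represented by FEN1, the flap endonuclease that trims Okazaki fragments (GRCh37 chr11:61560383-61564710, plus strand), and it moved against the other called members. Its counts in the activating line were 51, 43, 29 and 43 under vehicle and 171, 149, 123 and 150 under tamoxifen. All 4 tamoxifen libraries exceeded every other library of the series. The mean rose from 56.6 ± 9.8 to 278.1 ± 25.4 CPM, 5.36-fold (log2 fold change 2.42 ± 0.14, adjusted p = 1.55e-12). In the other lines the changes were -0.31 ± 0.22 (parental), 0.16 ± 0.18 (neutral) and -0.27 ± 0.20 (repressive), with overlapping ranges and 19 to 59 counts per library. The response exceeded that of the neutral line by 2.24 (95% interval 1.79 to 2.68, adjusted p = 1.67e-09) and that of the repressive line by 2.69 (2.20 to 3.17, adjusted p = 9.52e-12). FEN1 has no annotated exon opposite to it, but the part of the strand setting in its counts was not tested either. It shares 49 bases of exon with FADS2, a fatty acid desaturase gene on the same strand, which rose 4.49-fold in the activating line under tamoxifen (adjusted p = 5.92e-08), and how reads of the shared bases were divided was not tested.

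The helicase subunit MCM7, the histone chaperone NASP and POLR1B, the second largest subunit of RNA polymerase I, were not called in any comparison. MCM7 (GRCh37 chr7:99689856-99699563, minus strand) was counted 23, 20, 20 and 11 times under vehicle and 12, 17, 11 and 16 times under tamoxifen in the activating line, a log2 fold change of 0.19 (95% interval -0.36 to 0.74). These groups overlapped, and over all 8 groups the mean of MCM7 stayed between 23.1 and 27.5 CPM. AP4M1, an adaptor subunit gene that overlaps MCM7 on the opposite strand over 392 bases, rose in the activating (0.33 ± 0.11, adjusted p = 0.0159) and the repressive line (0.26 ± 0.09, adjusted p = 0.0371). In the activating line its mean was 684.5 CPM under vehicle and 791.1 CPM under tamoxifen. That of MCM7 was 25.1 and 26.2 CPM, and no share was taken for this pair.

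NASP (GRCh37 chr1:46049518-46084576, plus strand) was the least counted member, with 9, 7, 2 and 11 counts under vehicle and 3, 3, 0 and 4 under tamoxifen in the activating line. Its log2 fold change of -0.93 there had an interval from -2.18 to 0.33 (adjusted p = 0.226), and that of -0.85 in the repressive line one from -1.92 to 0.22 (adjusted p = 0.285). A fall as large as that of TYMS was within both intervals. POLR1B (GRCh37 chr2:113299492-113337395, plus strand) was counted 18, 14, 8 and 6 times and then 8, 5, 6 and 5 times in the activating line, with a log2 fold change of -0.32 (95% interval -1.09 to 0.44). Its lowest group was the parental line under tamoxifen at 9.74 ± 4.57 CPM, against 17.8 ± 9.4 under vehicle (log2 fold change -0.90 ± 0.42, adjusted p = 0.641). The Y RNA annotated opposite the end of POLR1B was counted at most 1 time in a library.

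Across the 32 libraries the members did not move as a single block. On the scale of log2 CPM, Pearson's r was -0.95 between ENOSF1 and FEN1, 0.72 between ENOSF1 and CCNE2, 0.51 between ENOSF1 and CENPU and 0.47 between ENOSF1 and TYMS. It was 0.16 between TYMS and CCNE2 and -0.02 between FEN1 and MCM7. These values describe 32 points, of which the 4 tamoxifen libraries of the activating line stand apart for ENOSF1 and FEN1. Among tested genes with a mean of at least 20 counts, the patterns most like ENOSF1 over the 32 libraries were those of ITFG2 (r = 0.993), AC087645.1 (r = 0.992) and SGOL1-AS1 (r = 0.986). For FEN1 they were ZNF497 (r = 0.952), AC107016.1 (r = 0.943) and CTC-327F10.4 (r = 0.939). For TYMS they were TBC1D10C (r = 0.761), LRRC8E (r = 0.743) and TOMM70A (r = 0.729), for CCNE2 NUP88 (r = 0.814), C14orf79 (r = 0.780) and XXbac-BPG252P9.9 (r = 0.769), and for CENPU WRAP53 (r = 0.686), KHK (r = 0.676) and AC010761.8 (r = 0.662). For MCM7 the closest was TMPRSS9 (r = 0.504), for NASP DCLRE1C (r = 0.609) and for POLR1B LRRC37A17P (r = 0.641). Of the 24 genes listed in this way for the 8 members, 17 have an exon opposite an exon of another gene, as do 82.4% of the 2096 tested genes at this level. ITFG2 lies opposite FOXM1, NRIP2 and further genes, and XXbac-BPG252P9.9 lies opposite TUBB. No opposite exon was found for AC087645.1 and SGOL1-AS1, which were also most like ENOSF1.

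The wider replication and cell cycle lists were called in both directions in the activating line, at about the rate of all tested genes. Of 183 listed genes in the table, 43 were counted highly enough to be tested, and a gene could pass through any one group. In the activating line 10 of the 43 rose and 11 fell, with a median log2 fold change of -0.20 against -0.09 over all tested genes. These 21 calls are a share near the 44.8% called over all tested genes (22.0% higher and 22.8% lower). With no filter on low counts, 184 rows carried the listed symbols, and 9 rose and 12 fell. Over all 23861 rows of that setting 1797 were called, 1005 of them higher. This setting takes in rows counted too low to be tested above, both among the listed rows and among all rows. The median of the listed rows was -0.64 against 0 over all rows. By list it was -1.41 for polymerases and fork, -1.29 for the S phase list and -0.90 for histone supply and chromatin assembly. Nucleotide supply stood at -0.81, G1/S control at -0.59 and licensing and helicase at -0.55. RNA polymerase I stood at -0.30 and the CENP-A nucleosome and inner kinetochore at -0.03. Among 6 licensing and helicase genes none rose and MCM3, a helicase subunit, fell by 1.74 on the log2 scale. Among 5 polymerase and fork genes, FEN1 and RNASEH2C (0.26) rose and none fell. Among 6 genes of nucleotide supply, IMPDH2 (0.34), which serves guanine nucleotide synthesis, rose, and TYMS and SHMT2 (-1.87), which feeds one-carbon units to it, fell. Among 7 genes of G1/S control, CDK4 (1.75), E2F5 (0.36) and the pocket protein gene RBL2 (0.72) rose, and CCNE2 and the CDK inhibitor gene CDKN2C (-1.15) fell.

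Among 6 genes of histone supply and chromatin assembly, RBBP4 (1.23) and SSRP1 (1.25) rose, and CHAF1A (-2.14), the large subunit of the assembly factor that works with PCNA, and the maintenance methyltransferase gene DNMT1 (-1.93) fell. Among 7 genes of the CENP-A nucleosome and inner kinetochore, CENPN (1.11) and OIP5 (1.09) rose, and CENPU and CENPO (-0.75) fell. Among 6 genes of RNA polymerase I, none rose, and POLR1C (-1.08) and TAF1D (-1.94) fell. The S phase list used in single-cell cell cycle scoring had 7 tested genes, of which FEN1 rose and TYMS, CCNE2 and CENPU fell. In the repressive line 3 of the 43 rose, namely RNASEH2C (0.44), CDK4 (0.50) and CD3EAP (0.50), and CENPN (-0.48) and CENPP (-0.26) fell, against 17.8% of all tested genes called in this comparison. In the neutral line 1 of 43 rose and none fell, against 4.72% of all tested genes called, and in the parental line none was called, against 0%.

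The genes opposite the listed genes were read in the same way, a comparison chosen after the values were seen. Of 40 such genes tested, 25 fell and 3 rose in the activating line, with a median log2 fold change of -0.67. Over all tested genes 22.8% fell and 22.0% rose there, with a median of -0.09. INTS8, PRIMPOL and ENOSF1 were among those that fell. So were EXOSC9 opposite CCNA2 (cyclin A2) at -3.35, over 254 shared bases, and WSB2 opposite RFC5 at -2.45, over 186 bases. GSE1 opposite GINS2 fell as well, at -2.20, but these share only 7 bases. TSPAN31 opposite CDK4 was at -1.15, over 1369 bases, while CDK4 itself rose. Those that rose were AP4M1, CMC2 opposite CENPN (0.79) and AC005037.3 opposite ORC2 (1.06). For the 7 tested genes opposite the S phase list, 6 fell and 1 rose, with a median of -2.49. In the repressive line 6 of the 40 rose and 6 fell, against 7.8% higher and 9.99% lower over all tested genes. In the neutral line 2 fell and none rose, against 2.11% lower and 2.61% higher. In the parental line none was called, as for all tested genes (0%).

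**Figure D4:**
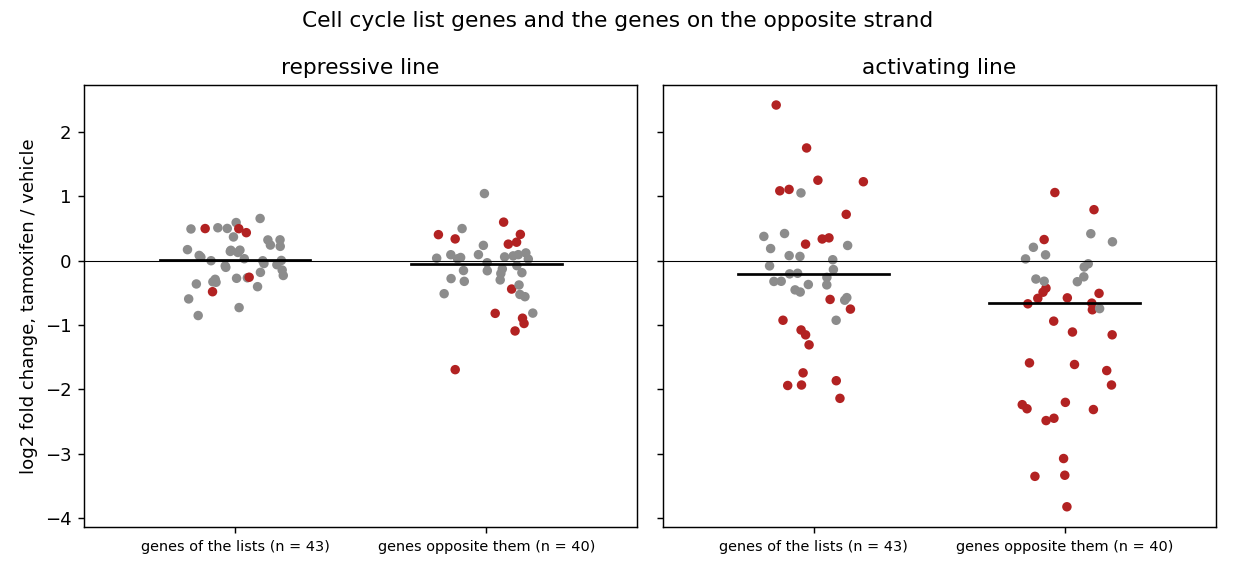
Log2 fold change of tamoxifen over vehicle (vertical axis) for the 43 tested genes of the replication and cell cycle lists and for the 40 tested genes annotated opposite them, in the repressive and activating lines. Points are genes (red, adjusted p under 0.05), horizontal jitter has no meaning, and bars are medians. In the activating line the medians lie at -0.20 and -0.67.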

How the data were processed

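RNA of LNCaP lines was sequenced from Illumina Stranded mRNA libraries. The authors aligned reads to GRCh37 and deposited estimated counts per gene from Salmon 1.9.0, merged over all samples; their own tests used DESeq2 1.28.0. The annotation release and strand setting are not given in the sources used here. The deposited estimated counts were rounded, genes were kept by filterByExpr over the 8 groups, and edgeR 4.0.16 was run with TMM normalisation, robust quasi-likelihood F tests and Benjamini-Hochberg adjustment over 3985 genes, each comparison on its own libraries. Because replicates were described only as biological replicates, p-values measure the spread between these cultures. Alternatives were DESeq2 1.42.0, other size factors and filters, a joint fit, a replicate block and leaving out libraries. In data simulated for the activating line over 3985 genes, changes were planted only in genes with a mean of at least 20 counts. Of these, 90 of 100 changed 2-fold and 97 of 100 changed 4-fold were called, as were 14 unchanged genes. These rates do not cover TYMS, MCM7, NASP or POLR1B, which lie below that mean. Fewer genes were changed in the simulation than the 1786 called in the measured libraries of that line. Shares used exact permutation tests, with no correction for their number. Only the TYMS share was planned, and the CCNE2 and CENPU shares were not. MCM7 and AP4M1 were summed but given no share. The summed pairs were added after the data were seen. Exon overlaps were taken from GENCODE models on GRCh37, where 96.1% of the table's genes were found. The members and lists were chosen with earlier results of these data known. Named genes were the members, genes opposite them, the 3 most similar genes for each member, and called list genes, at most 4 a list; further names, including one more gene of G1/S control, FADS2 and the genes opposite list genes, were chosen after their values were seen. One further marker is not reported here. Depth was 454982 to 1164808 counts per library.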

Additional observations from a re-analysis of the deposited data

Results flagged for a closer look

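In all, 5 libraries stood apart from the other 3 of their group by Dixon's test, among 64 groups examined, of which chance gives about 1 in 20. In normalised CPM they were TYMS in repressive vehicle replicate 2 (43.3) and activating vehicle replicate 3 (37.9), CCNE2 in neutral tamoxifen replicate 3 (37.5) and activating tamoxifen replicate 4 (39.6), and NASP in neutral vehicle replicate 3 (5.36). The CCNE2 value of 39.6 belongs to the library nearest to the vehicle range in the comparison that called CCNE2, and without it the log2 fold change was -0.83 (adjusted p = 0.0139).

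The response to tamoxifen differed between lines, by the interaction test, for ENOSF1 and FEN1. The activating response of ENOSF1 differed from the neutral one by -3.70 and from the repressive one by -3.88 on the log2 scale. For FEN1 the differences were 2.24 and 2.69.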

How the results depend on the processing

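ENOSF1, FEN1, TYMS and CENPU in the activating line kept direction and call under every alternative that gave them a value, and with any library left out the ranges were -3.90 to -3.73, 2.35 to 2.53, -1.58 to -1.10 and -1.06 to -0.82. A mean of at least 20 counts removed TYMS, MCM7, NASP and POLR1B from testing. CCNE2 lost its call with DESeq2 (-0.59, adjusted p = 0.149), median-of-ratios factors (-0.58, 0.0529), no filter (-0.58, 0.244), and when activating vehicle replicate 1, 3 or 4 or activating tamoxifen replicate 1, 2 or 3 was left out (range of all omissions -0.83 to -0.51). With upper-quartile factors TYMS (-1.07, adjusted p = 0.0422) joined the activating against neutral interaction and CENPU (-1.03, adjusted p = 0.0482) the activating against repressive one. Members called between repressive and parental vehicle numbered 1 (TYMS) in one fit over all libraries, 1 with the replicate block and 0 to 1 with a library left out; between activating and parental vehicle, 1 in the joint fit and 0 to 1. Without parental vehicle replicate 3, TYMS was the 1 called in both. In the activating line 4 to 5 members were called with a library left out. The sum of CCNE2 and INTS8 had the opposite sign to CCNE2 alone in the repressive vehicle comparison, at -0.30 (adjusted p = 0.0348). It was called in the neutral (-0.59) and activating (-0.48) vehicle comparisons. Both interactions of the activating line were called for it as well (-2.25 against neutral, -2.10 against repressive). The sum of CENPU and PRIMPOL was called in the same interactions (-1.52 and -1.82). That of MCM7 and AP4M1 was called under tamoxifen in the activating (0.32) and repressive (0.25) lines. INTS8 and AP4M1, at means of 412 and 444 counts, made up most of their sums, and AP4M1 alone gave 0.33 and 0.26. Which gene of a pair gave the counted reads cannot be told apart, so these calls cannot be assigned to either gene of the pair. The list genes called in the repressive line numbered 3 with no filter (504 of all 23861 rows were called there) against 5. Across other settings, 74 values of uncalled members changed sign without a call.

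Same-numbered libraries did not deviate together in every pair (at most 2 of 4 correlations over 0.1), so the numbers are not read as pairs. The replicate block raised the genes called in the parental line from 0 to 32, and left the members called in the activating line at 5, with TYMS at -1.30. Counts over all genes that moved by more than 1.5 times were, in the parental line, 18 with no filter and 3 without parental vehicle replicate 1 (0 before), in the neutral line 105 and 415 without neutral tamoxifen replicate 3 and 4 (188), and in the repressive line 451 with DESeq2 (709). For the vehicle comparisons they were 208 with the replicate block and 202, 215 and 241 without parental replicate 3 and neutral replicate 2 and 4 (388), 273 with DESeq2, 686 with the block and 280 and 251 without parental replicate 3 and repressive replicate 2 (432), and 542 in the joint fit, 90 with the block, 212 and 120 without parental replicate 2 and 3 and 172, 171 and 177 without activating replicate 1, 2 and 3 (322). Differences in share, in percentage points, ranged with a library left out for TYMS -0.608 to 0.0389 (parental), -0.339 to -0.0287 (neutral), -1.12 to -0.645 (repressive), 9.03 to 14.5 (activating), for CCNE2 1.1 to 2.22 (parental), -0.839 to 0.108 (neutral), -0.138 to 0.986 (repressive), 13.1 to 15.4 (activating), for CENPU -8.76 to -1.27 (parental), -3.79 to 0.343 (neutral), -0.64 to 6.2 (repressive), 31.6 to 42.7 (activating). With 4 against 3 libraries the exact permutation p cannot go below 0.0571. The planned test for members that fail the filter was not needed. NASP, at 0 to 17 counts a library, had the widest interval of the 8 members in the activating line.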
